A study of Rattus norvegicus with 10 samples.

Results

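Cholesterol handling was followed through 34 genes, of 23422 listed in the expression table, in epithelial cells from the distal colon of rats fed a bile acid. The genes were chosen by name. No measured value entered the rule, but earlier results of these data were known when the genes were chosen. The 34 fall into 19 enzymes of cholesterol synthesis, 9 genes of sterol sensing, uptake and transport, and 6 genes of the liver X receptor (LXR) branch, efflux and esterification. All 34 were in the table and all 34 carried enough reads to be tested.

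Cells build cholesterol from acetyl-CoA through mevalonate, farnesyl diphosphate, squalene and lanosterol. The transcription factor SREBP2 (gene Srebf2) drives these genes: its escort protein SCAP carries it out of the endoplasmic reticulum when membrane sterol is low, and INSIG proteins hold it back when sterol is plentiful. LXRs respond to oxysterols and raise transporters that export cholesterol, while acyl-CoA:cholesterol acyltransferases store it as esters. Colonic epithelium renews itself within days and uses the pathway mainly to supply membranes, and cholate is a primary bile acid that normally reaches the colon in small amounts.

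Male Wistar Munich rats, whose age the labels do not give, spent 3 days in metabolic cages on standard chow and were then either kept on that chow or given the same chow with 1% (w/w) sodium cholate for 10 days. Each diet had 6 rats. Only the 5 extracts richest in RNA from each were taken forward, so the 10 libraries are not a random sample of the animals. The cells were shaken from everted distal colon sacs after 20 min in EDTA, and 1 strand-specific poly(A) library was made per rat. The control rats are numbered 1, 2, 5, 6 and 9 and the cholate rats 3, 4, 7, 8 and 11, and values are given in that order throughout.

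Levels are CPM, read counts scaled to a common library size after TMM normalization, where TMM is a correction for differences in library makeup. A gene is said to have risen or fallen where the adjusted p of edgeR's quasi-likelihood test was under 0.05, and is called where the adjusted p was under 0.01 and the fold over 2, the criteria the submitters used. Means are given ± SD over the 5 rats of a diet. The standard error (SE) of a log2 fold change is approximate, taken from the test statistic. The libraries held 14337356 to 45285762 counted reads, and the libraries of control rat 9 and cholate rats 8 and 11 stood apart from the other 7 along the first principal component, which held 46.8% of the variance. In those 3 libraries genes with long transcripts were low relative to the mean (Spearman correlation of deviation with exon length -0.54 to -0.38 across genes, against 0.07 to 0.44 in the other 7), so results are also given without them. Epithelial markers were abundant in all libraries, with Epcam between 1891 and 2884 CPM, and the summed level of 10 epithelial markers was 16880 to 23620 CPM in the controls and 26490 to 38530 CPM on cholate, with 4 of 10 rising. The 4 were Krt20, Vil1, Car1 and Lgals4. Epcam, Cdh1 and Krt18 had log2 fold changes of -0.10, -0.16 and -0.33, and Krt8, Krt19 and Cdx2 of 0.53, 0.41 and 0.34. None of these others had an adjusted p under 0.05. Of 10 proliferation markers 4 also rose, beside 6.48% of all genes tested. Their sums were 696 to 861 CPM in the controls and 858 to 1326 CPM on cholate. The sum of 5 smooth muscle markers was 42.3 to 61.7 CPM in the controls and 8.11 to 13.5 CPM on cholate. In the controls most of that sum was Des, at 32.2 to 50.9 CPM there and 2.24 to 6.15 CPM on cholate. Myh11 was at 8.86 to 12.6 and 4.48 to 7.26 CPM, and Acta2, Tagln and Cnn1 were at most 0.698 CPM in any library. The sum of 5 endothelial markers was 4.07 to 8.28 and 1.90 to 4.15 CPM, and that of 10 macrophage and dendritic markers 27.3 to 36.6 and 29.6 to 42.6 CPM. The sum of 7 lymphocyte markers was 1.79 to 4.14 CPM in the controls and 1.63 to 7.78 CPM on cholate, and that of 6 fibroblast markers 1.75 to 3.79 and 0.38 to 3.25 CPM, with Col1a2 at 0 in all libraries. The part these shifts play in the results was not tested, and in such bulk RNA fewer cells of a type and less RNA per cell cannot be told apart.

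Cholesterol synthesis genes were higher on cholate almost throughout the pathway, while the genes for SREBP2, SCAP and the LXR branch did not pass the test. Of the 34 genes 16 rose, against 6.48% of the 12385 genes tested, and 1 fell, against 7.28%. The 16 comprised 14 of the 19 synthesis enzymes, the sterol sensor Insig1 and the cholesterol importer Npc1l1, and the gene that fell was Mylip. The median log2 fold change was 0.87 over the synthesis enzymes, 0.18 over the sensing, uptake and transport genes and -0.24 over the LXR, efflux and esterification genes, beside -0.01 over all genes tested. By the stricter criteria 6 of the 34 were called higher, against 1.1% of all genes, and 0 were called lower, against 2.12%. At an unadjusted p under 0.05 18 members were higher, against 14.5% of all genes tested, and 2 were lower, against 14.4%. DESeq2 and edgeR's exact test each called 1 lower, Mylip, whereas limma-voom and limma-trend called 0. In 12 members every cholate rat was above every control rat, which 6.3% of all genes also showed, and in 0 members every cholate rat was below every control rat, which 6.8% of all genes showed. Npc1l1 is counted among the 16 that rose, the 6 called and the 12 without overlap, although its entry to the test depended on the cholate rats.

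**Figure D1:**
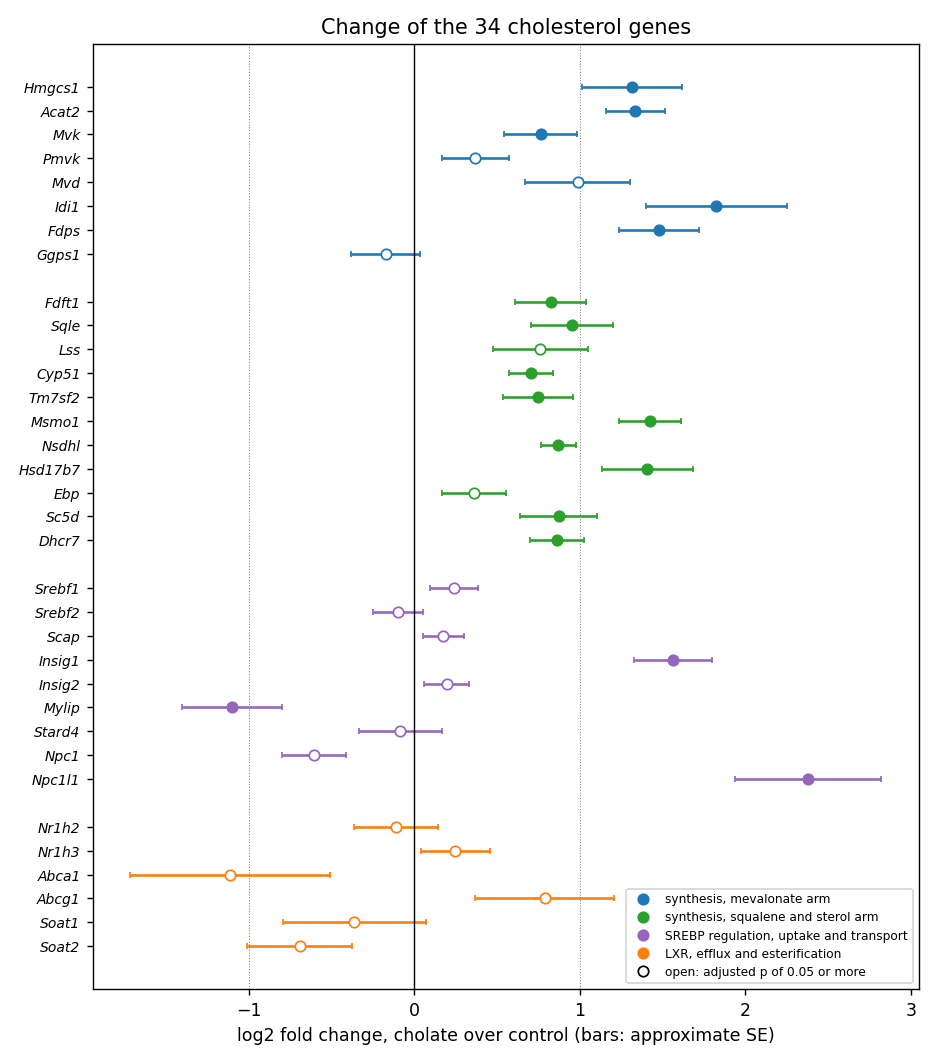
Log2 fold change, cholate over control, of the 34 cholesterol genes by role (5 rats per diet), with approximate SE as bars; filled points have an adjusted p under 0.05 and dotted lines mark a 2-fold change. All synthesis enzymes except Ggps1 lie to the right of 0, and the LXR, efflux and esterification genes lie on both sides of it.

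The promoters of the 6 members called higher are printed, and 1 site of Srebf2 because that gene encodes the pathway's regulator. RefSeq windows on the GRCr8 build (250 bases before to 50 after the start of transcription) matched 28 of the 34 members, with 29 windows because Srebf1 has 2; Pmvk, Fdft1, Sqle, Stard4, Abcg1 and Soat2 were not matched. Capitals mark the motifs searched on both strands: CCAAT (the NF-Y box, which reads ATTGG on the opposite strand), TCACNCCA (a sterol regulatory element core) and CACGTG (an E-box). The sequences run 5′ to 3′ on each gene's own strand, over chr16:29746863-29747162 (+) for Msmo1, chr1:50100590-50100889 (+) for Acat2, chr4:8057720-8058019 (-) for Insig1, chr2:176804767-176805066 (-) for Fdps, chr14:85305001-85305300 (-) for Npc1l1, chr13:84722705-84723004 (-) for Hsd17b7 and chr7:115543140-115543169 (+) for the Srebf2 site.
Msmo1: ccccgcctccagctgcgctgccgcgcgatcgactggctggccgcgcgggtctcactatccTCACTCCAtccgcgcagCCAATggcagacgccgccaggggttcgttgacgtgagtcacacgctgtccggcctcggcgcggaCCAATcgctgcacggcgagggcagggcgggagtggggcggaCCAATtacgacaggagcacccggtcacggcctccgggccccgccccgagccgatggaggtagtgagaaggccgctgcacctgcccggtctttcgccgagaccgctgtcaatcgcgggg
Acat2: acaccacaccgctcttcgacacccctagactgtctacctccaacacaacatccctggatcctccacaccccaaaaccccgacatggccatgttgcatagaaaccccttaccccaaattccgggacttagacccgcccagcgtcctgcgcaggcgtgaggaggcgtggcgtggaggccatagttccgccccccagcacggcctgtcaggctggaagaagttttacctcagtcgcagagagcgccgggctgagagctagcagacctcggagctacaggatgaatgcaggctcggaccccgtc
Insig1: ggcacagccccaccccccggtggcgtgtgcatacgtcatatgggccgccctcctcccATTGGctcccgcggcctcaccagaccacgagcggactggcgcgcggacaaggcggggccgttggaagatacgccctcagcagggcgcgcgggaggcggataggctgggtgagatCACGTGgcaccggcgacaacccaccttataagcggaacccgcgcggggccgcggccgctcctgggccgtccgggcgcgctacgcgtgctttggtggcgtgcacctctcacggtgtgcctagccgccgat
Fdps: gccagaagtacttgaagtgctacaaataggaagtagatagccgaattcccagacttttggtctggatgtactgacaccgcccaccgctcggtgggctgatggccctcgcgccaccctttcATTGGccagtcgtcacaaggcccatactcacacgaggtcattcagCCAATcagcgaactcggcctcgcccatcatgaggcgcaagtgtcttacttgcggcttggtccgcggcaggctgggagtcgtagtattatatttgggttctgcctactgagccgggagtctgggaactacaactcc
Npc1l1: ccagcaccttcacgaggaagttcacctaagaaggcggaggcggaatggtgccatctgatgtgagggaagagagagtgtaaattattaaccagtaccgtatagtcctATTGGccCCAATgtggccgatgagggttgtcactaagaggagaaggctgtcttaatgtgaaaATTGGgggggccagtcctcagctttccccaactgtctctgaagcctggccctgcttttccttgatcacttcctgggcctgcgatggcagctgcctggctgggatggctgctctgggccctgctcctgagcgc
Hsd17b7: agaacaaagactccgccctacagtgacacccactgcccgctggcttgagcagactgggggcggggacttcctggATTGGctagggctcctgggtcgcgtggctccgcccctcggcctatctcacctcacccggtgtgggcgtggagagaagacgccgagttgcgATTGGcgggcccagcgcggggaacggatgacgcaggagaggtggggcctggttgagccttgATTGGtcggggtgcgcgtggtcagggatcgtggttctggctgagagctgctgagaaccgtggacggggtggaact
Srebf2 site: atgacgcgccaTCACCCCAtgagccgcttc
Msmo1 held TCACNCCA 190 bases before its start, and 3 CCAAT boxes 173, 109 and 68 bases before it. Insig1 held CCAAT on the opposite strand 193 bases and CACGTG 79 bases before its start. Fdps held CCAAT on the opposite strand at 130 bases and on its own strand at 85 bases, Npc1l1 held 3 CCAAT boxes at 144, 137 and 82 bases, Hsd17b7 held 3 on the opposite strand at 176, 86 and 25 bases, and Acat2 held none of the motifs. The CCAAT box was found in 13 of 16 windows of synthesis enzymes (81.2%), 7 of 9 of sensing, uptake and transport genes (77.8%) and 1 of 4 of LXR, efflux and esterification genes (25%), beside 37.5% of all 33469 windows. TCACNCCA was in the windows of Msmo1 and Srebf2, 6.9% of the members' windows and 3.89% of all. CACGTG was in 4 members' windows, those of Insig1, Scap, Sc5d and Abca1 (13.8%), beside 6.42% of all. TCACNCCAC, which contains TCACNCCA, was in 0 members' windows and 1.12% of all, and the LXR element, a direct repeat of AGGTCA with 4 bases between its copies, was in 0 and 0.00598%. These matches are descriptions of the letters in the windows.

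In the mevalonate arm, which runs from acetyl-CoA to farnesyl diphosphate, 5 of 8 enzymes rose, against 6.48% of all genes tested. Of these, 2 were called, Acat2 and Fdps, against 1.1% of all genes called higher. The median log2 fold change was 1.15. Ggps1, which diverts farnesyl diphosphate towards protein prenylation, was the only synthesis gene below 0, with means of 12.8 ± 2.496 in the controls and 11.4 ± 2.54 CPM on cholate (log2 fold change -0.17, SE 0.21, adjusted p = 0.64).

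Acat2 (GeneID 308100, chr1:47972399-47992654, + strand, in rn6, as are the gene positions that follow) makes acetoacetyl-CoA, the first step of the pathway. It stood at 15.9, 20.3, 22.9, 19.9 and 13.2 CPM in the control rats and 40.1, 48.6, 56.7, 48.01 and 39.02 CPM in the cholate rats. The lowest cholate rat was well above the highest control rat, and the mean went from 18.4 ± 3.85 to 46.5 ± 7.21 CPM (log2 fold change 1.33, SE 0.18, adjusted p = 0.0016). Acat2 shares 35 coding bases with a gene on the opposite strand, LOC102553528, and the sources used here do not state whether counting used the strand. Hmgcs1 joins acetoacetyl-CoA with a further acetyl-CoA. Its levels were 159, 227, 154, 164 and 89.9 CPM in the control rats and 428, 648, 317, 209.5 and 373 CPM in the cholate rats, with cholate rat 8 below control rat 2 and the other 4 cholate rats above all controls. Hmgcs1 rose from 159 ± 48.7 to 395 ± 163 CPM (log2 fold change 1.31, SE 0.30, adjusted p = 0.0169), over 2-fold but short of the p required for a call.

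Mvk, mevalonate kinase, was at 35.4, 35.6, 44.6, 35.2 and 47.4 CPM in the control rats and 53.7, 46.4, 53.7, 93.96 and 88.8 CPM in the cholate rats. Cholate rats 8 and 11 were the highest, and cholate rat 4 was below control rat 9. Its rise from 39.6 ± 5.87 to 67.3 ± 22.3 CPM (log2 fold change 0.76, SE 0.22, adjusted p = 0.0417) was among the smaller ones. Pmvk, phosphomevalonate kinase, had means of 88.3 ± 15.8 in the controls and 114 ± 33.6 CPM on cholate (log2 fold change 0.37, SE 0.20, adjusted p = 0.264), and Mvd, which decarboxylates mevalonate diphosphate, 38.9 ± 10.6 in the controls and 77.1 ± 36.3 CPM on cholate (log2 fold change 0.99, SE 0.32, adjusted p = 0.0621). For both, cholate rats 8 and 11 were above every control while the other 3 cholate rats lay within or near the control range.

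Idi1 interconverts the isopentenyl and dimethylallyl diphosphates that are joined into farnesyl diphosphate. Its levels were 31.4, 31.5, 22.4, 29.7 and 10.2 CPM in the control rats and 110.2, 119.8, 130.0, 28.9 and 54.9 CPM in the cholate rats. Cholate rats 3, 4 and 7 were more than 3-fold above the highest control, whereas cholate rat 8 lay within the control range. Idi1 rose from 25.1 ± 9.09 to 88.7 ± 44.3 CPM (log2 fold change 1.82, SE 0.43, adjusted p = 0.0183). Fdps, farnesyl diphosphate synthase (GeneID 83791, chr2:188403595-188413219, - strand), stood at 114, 113, 154, 101 and 155 CPM in the control rats and 258, 254, 272, 503 and 488 CPM in the cholate rats. No rats overlapped between diets, and cholate rats 8 and 11 were the highest. The mean of Fdps went from 128 ± 24.97 to 355 ± 129 CPM (log2 fold change 1.48, SE 0.24, adjusted p = 0.00378).

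**Figure D2:**
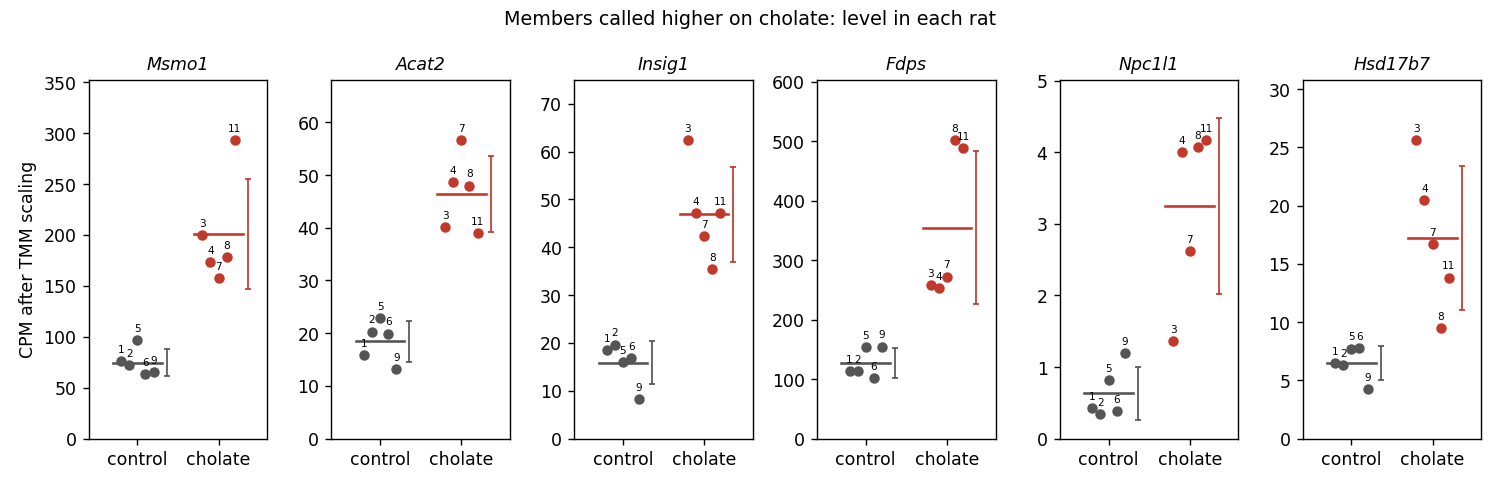
CPM after TMM scaling in each rat for the 6 members called higher on cholate; numbers are rats, horizontal lines are means of 5 rats and vertical bars are SD. The diets do not overlap in any of the 6 panels, and in Fdps cholate rats 8 and 11 (503 and 488 CPM) sit apart from cholate rats 3, 4 and 7 (254 to 272 CPM).

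In the squalene and sterol arm 9 of 11 enzymes rose, 2 of them called, Msmo1 and Hsd17b7, beside the same 6.48% and 1.1% of all genes. All 11 log2 fold changes were above 0, from 0.36 to 1.42, with a median of 0.86. In 8 of the 11 every cholate rat was above every control rat, which 6.3% of all genes also showed.

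Fdft1, squalene synthase, commits farnesyl diphosphate to sterols and was at 174, 184, 229, 150.1 and 192 CPM in the control rats and 254, 292, 215, 419 and 463 CPM in the cholate rats. Cholate rat 7 was below control rat 5, and Fdft1 rose from 186 ± 28.8 to 329 ± 107 CPM (log2 fold change 0.82, SE 0.22, adjusted p = 0.0289). Sqle, squalene epoxidase, a rate-limiting step, was at 74.5, 104, 108, 69.99 and 106 CPM in the control rats and 136, 159.5, 111, 209 and 281 CPM in the cholate rats. Here all cholate rats were above all controls, by a narrow margin for cholate rat 7, and the mean went from 92.4 ± 18.5 to 179 ± 67.4 CPM (log2 fold change 0.95, SE 0.25, adjusted p = 0.0285). Lss, lanosterol synthase, also had no overlap, 47.9 ± 15.2 in the controls and 81.2 ± 24.8 CPM on cholate, but its adjusted p missed the threshold (log2 fold change 0.76, SE 0.29, adjusted p = 0.102). Control rat 9 had the lowest Lss level, 21.1 CPM, while the other controls were at 50.2 to 57.4 CPM.

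Cyp51, the lanosterol 14-alpha-demethylase, was at 82.3, 102, 117, 82.3 and 84.5 CPM in the control rats and 152, 151, 139.9, 139.5 and 181 CPM in the cholate rats. The cholate rats were close together and above all controls, and Cyp51 rose from 93.7 ± 15.5 to 153 ± 16.7 CPM (log2 fold change 0.70, SE 0.13, adjusted p = 0.00764). Tm7sf2, a sterol C14 reductase, was at 29.2, 29.9, 37.5, 31.9 and 49.4 CPM in the control rats and 53.3, 45.3, 47.3, 73.6 and 79.3 CPM in the cholate rats. Control rat 9 was above cholate rats 4 and 7, and the rise was from 35.6 ± 8.36 to 59.8 ± 15.6 CPM (log2 fold change 0.75, SE 0.21, adjusted p = 0.039). Msmo1, the sterol C4 methyl oxidase (GeneID 140910, chr16:26859441-26875880, + strand), stood at 75.8, 72.2, 96.6, 63.8 and 65.4 CPM in the control rats and 199.9, 174, 158, 178 and 294 CPM in the cholate rats. Every cholate rat was far above every control, and the mean went from 74.7 ± 13.2 to 201 ± 54.05 CPM (log2 fold change 1.42, SE 0.19, adjusted p = 0.0015), with the smallest adjusted p among the 6 called members.

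Nsdhl, which acts after Msmo1 in removing the C4 methyl groups, was at 51.6, 50.5, 55.4, 51.8 and 43.8 CPM in the control rats and 97.5, 94.2, 85.5, 89.4 and 96.2 CPM in the cholate rats. Neither diet spread widely, and Nsdhl had the smallest adjusted p of the 34 genes, rising from 50.6 ± 4.24 to 92.5 ± 5.01 CPM (log2 fold change 0.87, SE 0.10, adjusted p = 0.00106), a change under 2-fold. Hsd17b7 (GeneID 29540, chr13:88288116-88308019, - strand), the 3-ketosteroid reductase that completes C4 demethylation, stood at 6.45, 6.32, 7.72, 7.74 and 4.25 CPM in the control rats and 25.7, 20.5, 16.7, 9.52 and 13.8 CPM in the cholate rats. Its cholate rats spread from 9.52 to 25.7 CPM, all above the controls, with rat 8 lowest and rat 3 highest. Hsd17b7 went from 6.496 ± 1.43 to 17.2 ± 6.19 CPM (log2 fold change 1.41, SE 0.27, adjusted p = 0.00836), and 373 of its 1008 coding bases overlap LOC100366054 on the opposite strand.

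The last steps move and reduce the double bonds of the sterol. Ebp, the sterol isomerase, had means of 103 ± 19.9 in the controls and 132 ± 34.5 CPM on cholate (log2 fold change 0.36, SE 0.19, adjusted p = 0.246), with cholate rats 8 and 11 highest. Sc5d, the lathosterol oxidase, was at 60.4, 64.95, 45.5, 66.95 and 30.8 CPM in the control rats and 88.3, 74.9, 111, 85.95 and 132 CPM in the cholate rats. Its diets did not overlap, control rat 9 was lowest, and it rose from 53.7 ± 15.3 to 98.4 ± 22.8 CPM (log2 fold change 0.87, SE 0.23, adjusted p = 0.0305). Dhcr7, which reduces 7-dehydrocholesterol to cholesterol, was at 45.1, 46.2, 61.5, 41.7 and 46.3 CPM in the control rats and 70, 73.7, 86.5, 112 and 96.3 CPM in the cholate rats. The diets again did not overlap, control rat 5 was the highest control, and Dhcr7 rose from 48.2 ± 7.66 to 87.8 ± 17.2 CPM (log2 fold change 0.86, SE 0.16, adjusted p = 0.00738).

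**Figure D3:**
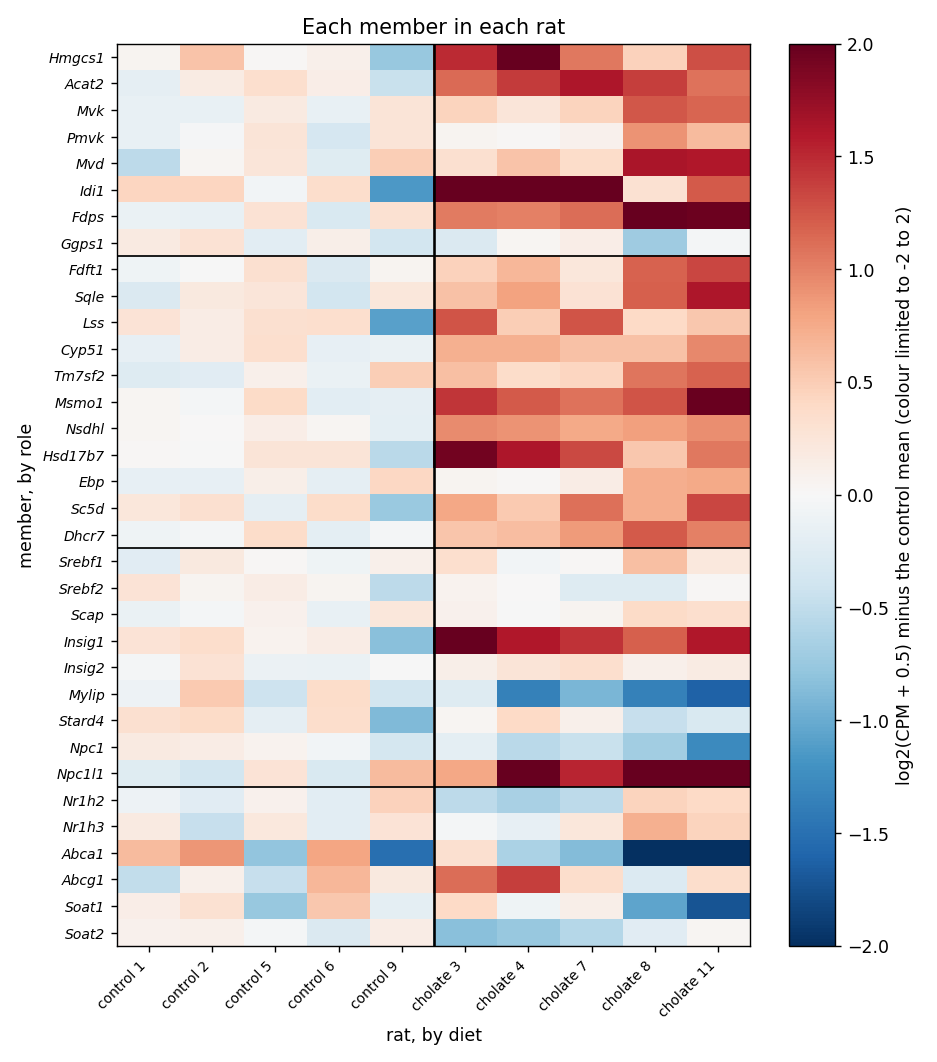
Each member (row, by role) in each rat (column, by diet) as log2(CPM + 0.5) minus the control mean, with colour limited to -2 to 2. The synthesis enzymes are red in most cholate rats, cholate rats 8 and 11 differ from 3, 4 and 7 in several rows such as Idi1 and Fdps, and Insig1 and Npc1l1 stand out among the genes of sensing and uptake.

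The enzymes were not raised by the same amount in each of the 5 cholate rats. In 9 of the 19 enzymes (Mvk, Pmvk, Mvd, Fdps, Fdft1, Sqle, Tm7sf2, Ebp and Dhcr7) rats 8 and 11 were both above rats 3, 4 and 7, in 2 (Idi1 and Hsd17b7) both were below, and in 8 the order was mixed. The median exon length was 1631 bases in the first set, 3840 in the second, which holds only 2 genes, and 2982 in the third. Rats 8 and 11 are those whose libraries were low in long transcripts. A part of transcript length in the order of the rats was not tested. Averaged over the 19 enzymes, the levels were nevertheless near each other: the mean log2 deviation from the control mean was -0.16 to 0.18 in the control rats and 0.81 to 1.14 in the cholate rats. The summed level of the 19 enzymes was 1177 to 1481 CPM in the controls and 2175 to 3181 CPM on cholate. Without control rat 9 and cholate rats 8 and 11, 15 of 19 enzymes rose, Lss now among them, against 13.6% of the 12620 genes tested in those 7 rats. The median log2 fold change was then 0.65, and the members called higher were 8, with Hmgcs1 and Idi1 added. Calls also grew over all genes, from 136 of 12385 called higher with all rats to 256 of 12620 in those 7.

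Per kilobase of coding sequence, the enzymes differed widely in level. Whether reads were counted over coding sequence only is not stated, and the orders by level per kb, here and below, assume that they were. Exon length exceeds coding length unevenly, at 4867 against 1008 bases in Hsd17b7 and 980 against 585 bases in Pmvk. In the controls Pmvk, Fdft1 and Ebp led at 151 ± 27.1, 148 ± 23.0 and 148 ± 28.7 CPM per kb (SD, n = 5) and did not differ beyond that spread. Fdps followed at 120.1 ± 23.5 and Hmgcs1 at 102 ± 31.1 CPM per kb. Hsd17b7 was the lowest enzyme, at 6.44 ± 1.42 CPM per kb. On cholate Fdps led the enzymes at 334 ± 121 CPM per kb, and Fdft1, Hmgcs1 and Msmo1 followed at 263 ± 85.8, 253 ± 104 and 228 ± 61.3 CPM per kb, with overlapping spreads.

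Among the 9 genes of sensing, uptake and transport, 2 rose, against 6.48% of all genes tested, and 1 fell, against 7.28%. The 2 include Npc1l1, whose entry to the test depended on the cholate rats. Srebf2, Srebf1 and Scap did not pass the test. Srebf2 was at 187, 161, 172, 161 and 109 CPM in the control rats and 164, 157, 129.8, 129 and 159 CPM in the cholate rats, with means of 158 ± 29.6 in the controls and 148 ± 16.8 CPM on cholate (log2 fold change -0.10, SE 0.15, adjusted p = 0.733). Control rat 9 was lowest and the diets overlapped. Srebf1, whose products drive mainly fatty acid synthesis, was at 88.8, 119, 106, 98.7 and 112 CPM in the control rats and 132, 100.4, 106, 159.5 and 121 CPM in the cholate rats, with means of 105 ± 11.7 in the controls and 124 ± 23.4 CPM on cholate (log2 fold change 0.24, SE 0.14, adjusted p = 0.313). Scap, the escort, had means of 114 ± 12.7 in the controls and 129 ± 15.9 CPM on cholate (log2 fold change 0.18, SE 0.12, adjusted p = 0.383). For all 3 the difference was under 0.25 on the log2 scale.

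Insig1 (GeneID 64194, chr4:342302-350515, + strand in rn6 but - strand in its GRCr8 window) encodes a protein that retains SCAP and is itself a target of SREBP2. It stood at 18.4, 19.7, 15.9, 16.9 and 8.33 CPM in the control rats and 62.5, 47.05, 42.3, 35.4 and 47.1 CPM in the cholate rats. All cholate rats were above all controls, control rat 9 was the lowest and cholate rat 3 the highest, and the mean went from 15.8 ± 4.44 to 46.9 ± 9.94 CPM (log2 fold change 1.56, SE 0.24, adjusted p = 0.00285). Its paralogue Insig2 was at 15.5, 19.6, 14.6, 14.5 and 15.8 CPM in the control rats and 17.3, 19, 20.2, 17.1 and 17.8 CPM in the cholate rats. Its diets overlapped, with control rat 2 above 4 of the 5 cholate rats, and the means were 15.98 ± 2.09 in the controls and 18.3 ± 1.29 CPM on cholate (log2 fold change 0.20, SE 0.14, adjusted p = 0.386).

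**Figure D4:**
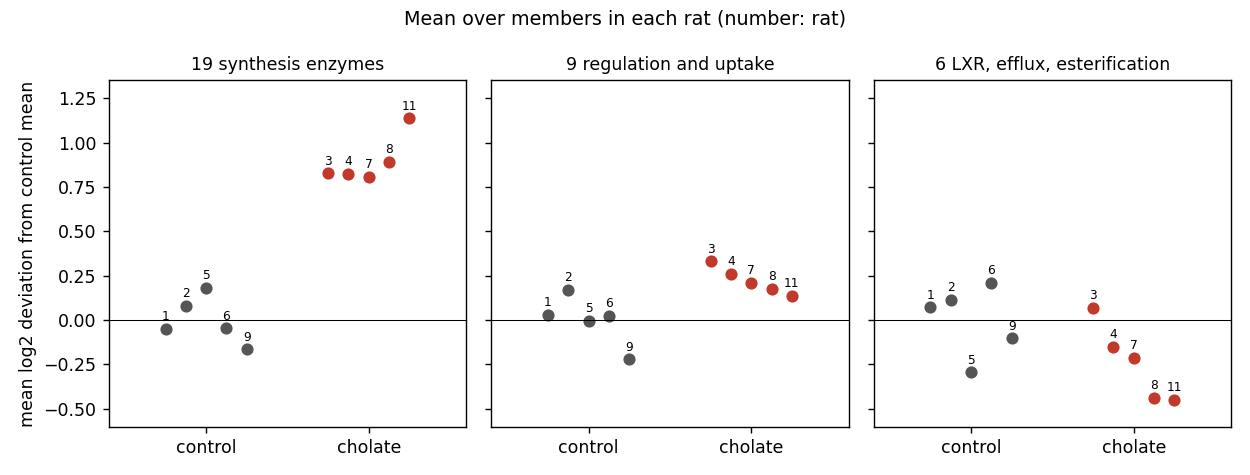
Mean log2 deviation from the control mean in each rat (number), over the 19 synthesis enzymes, the 9 genes of sensing, uptake and transport and the 6 genes of the LXR branch, efflux and esterification. The cholate rats lie at 0.81 to 1.14 in the first panel, at 0.14 to 0.33 in the second and at -0.45 to 0.07 in the third.

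Mylip encodes IDOL, an E3 ubiquitin ligase that sends lipoprotein receptors to degradation and is induced by LXR. It stood at 17.2, 26.8, 13.8, 24.01 and 14.3 CPM in the control rats and 15.4, 7.003, 9.61, 6.95 and 5.69 CPM in the cholate rats. Cholate rat 3 overlapped the controls and the other 4 cholate rats were below all of them. Mylip fell from 19.2 ± 5.87 to 8.93 ± 3.88 CPM (log2 fold change -1.10, SE 0.30, adjusted p = 0.0349). Npc1, which releases cholesterol from lysosomes, had means of 87.5 ± 12.3 in the controls and 57.5 ± 14.7 CPM on cholate (log2 fold change -0.61, SE 0.19, adjusted p = 0.0602) and did not pass the test. Without the 3 libraries that stood apart Npc1 fell by 0.46 on the log2 scale (adjusted p = 0.0174), so that 2 of the 9 genes fell, against 15.8% of all genes tested in those 7 rats. Stard4, a sterol transfer protein, had means of 62.5 ± 19.7 in the controls and 58.9 ± 13.9 CPM on cholate (log2 fold change -0.08, SE 0.25, adjusted p = 0.87).

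Npc1l1 (GeneID 432367, chr14:86345946-86560694, - strand) encodes the brush border importer of cholesterol that works chiefly in the small intestine. Its levels were 0.421, 0.345, 0.821, 0.383 and 1.197 CPM in the control rats and 1.37, 4.005, 2.62, 4.07 and 4.17 CPM in the cholate rats. The diets did not overlap, cholate rat 3 being only a little above control rat 9, and the rise from 0.633 ± 0.369 to 3.25 ± 1.23 CPM (log2 fold change 2.38, SE 0.44, adjusted p = 0.00695) was the largest of the 34 genes as a ratio. It was also the least abundant per length in the controls, at 0.159 ± 0.0923 CPM per kb, and rested on 79 reads over the 5 control libraries and 450 over the 5 cholate libraries. Npc1l1 reached the filter level of 0.387 CPM in 9 of the 10 libraries. Its entry to the test, and so its place among the genes that rose, depended on the cholate rats. The annotated Npc1l1 locus spans 214749 bases in rn6 and encloses 7 other genes, 5 of them on the same strand. Whether reads of those genes entered its count was not tested.

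None of the 6 genes of the LXR branch, efflux and esterification passed edgeR's quasi-likelihood test: 0 had an adjusted p under 0.05, 0 an unadjusted p under 0.05, and 0 fell by DESeq2, limma-voom, limma-trend or edgeR's exact test. Of the receptors, Nr1h2 (LXR beta) had means of 95.1 ± 20.2 in the controls and 88.2 ± 34.4 CPM on cholate (log2 fold change -0.11, SE 0.25, adjusted p = 0.83) and Nr1h3 (LXR alpha) 27.5 ± 5.86 in the controls and 32.7 ± 8.2 CPM on cholate (log2 fold change 0.25, SE 0.21, adjusted p = 0.483). In both, cholate rats 8 and 11 were above cholate rats 3, 4 and 7.

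Abca1, the LXR target that loads cholesterol onto apolipoprotein A-I, was at 23.4, 27.97, 8.39, 26.1 and 4.95 CPM in the control rats and 18.7, 9.41, 7.95, 2.75 and 2.88 CPM in the cholate rats. The controls themselves ranged from 4.95 to 28.0 CPM, control rats 5 and 9 lay with the cholate rats, and the log2 fold change was -1.11 (SE 0.60, adjusted p = 0.251). The second LXR transporter, Abcg1, was at 1.05, 1.84, 1.08, 2.95 and 2.01 CPM in the control rats and 4.25, 5.196, 2.28, 1.31 and 2.28 CPM in the cholate rats. Its diets overlapped, and its estimate pointed the other way (log2 fold change 0.79, SE 0.42, adjusted p = 0.243). Soat1, which esterifies cholesterol in most tissues, had means of 5.73 ± 1.96 in the controls and 4.41 ± 2.51 CPM on cholate (log2 fold change -0.36, SE 0.43, adjusted p = 0.641), and Soat2, the intestinal and hepatic form, 1.33 ± 0.217 in the controls and 0.849 ± 0.359 CPM on cholate (log2 fold change -0.69, SE 0.32, adjusted p = 0.176). Per length Nr1h2 was the most abundant of the 6 in the controls, at 71.4 ± 15.2 CPM per kb, and Abcg1 and Soat2 the least, at 0.764 ± 0.335 and 0.847 ± 0.138 CPM per kb. Without control rat 9 and cholate rats 8 and 11, 2 of the 6 fell, against 15.8% of all genes: Nr1h2 by 0.43 and Soat2 by 1.05 on the log2 scale (adjusted p = 0.0195 and 0.0316), while Abca1 did not pass (-0.82, adjusted p = 0.178). With control rat 5 also left out, a choice made after the data were seen, 3 of the 6 fell, against 19.8% of all genes. Abca1 was among them (-1.09, adjusted p = 0.0244). Control rats 5 and 9 were the lowest controls for Abca1, so a fit without them cannot serve as a test of its fall.

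**Figure D5:**
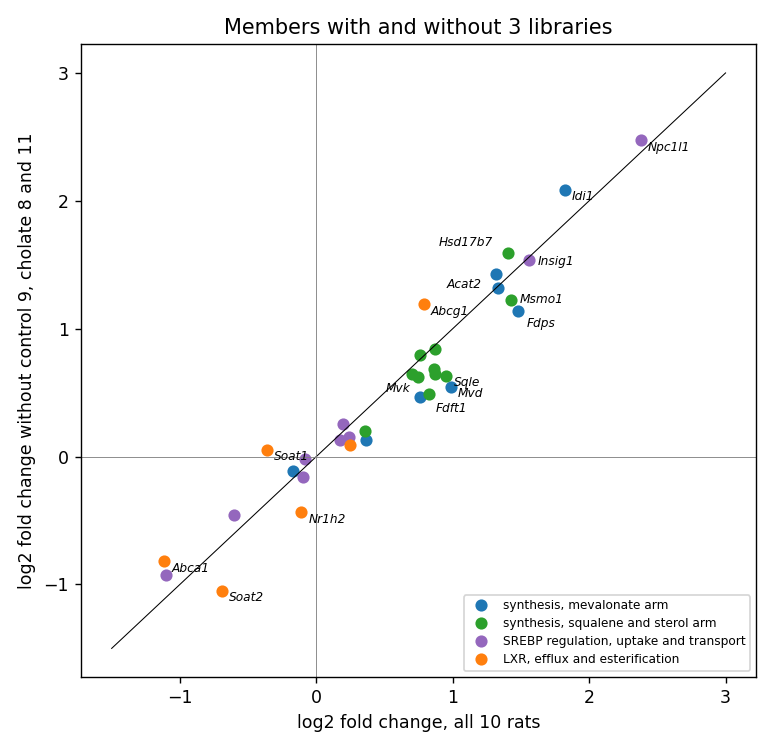
Log2 fold change of each member in 7 rats, without control rat 9 and cholate rats 8 and 11 (y), against all 10 rats (x); colours are roles and the line marks equal values. Fdps, Mvd, Sqle, Fdft1 and Mvk lie below the line, Idi1, Hsd17b7 and Abcg1 above it, and Soat1 changes sign near 0.

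The calls differed in how far they rested on single rats. Acat2, Msmo1 and Insig1 were called in all 10 fits that left out 1 rat. Fdps lost its call without control rat 1, 2 or 6 (adjusted p 0.0132 to 0.015), Npc1l1 without control rat 1, 2, 5 or 6 or cholate rat 4, 7, 8 or 11 (0.0119 to 0.0243), and Hsd17b7 in 9 fits, all but that without cholate rat 8 (0.0124 to 0.0272), though all 3 still rose in each fit. Hmgcs1, Idi1, Cyp51, Nsdhl and Dhcr7 also rose in all 10 fits. Fdft1 and Sqle missed the threshold without control rat 1, 2 or 6 (adjusted p 0.0702 to 0.0759 and 0.0569 to 0.0785). Sc5d missed it without control rat 1 or 5 or cholate rat 7 or 11 (0.0589 to 0.0684). Mvk missed it without control rat 1, 2, 5 or 6 or cholate rat 8 or 11 (0.051 to 0.104), and Tm7sf2 without those rats or cholate rat 3 (0.0507 to 0.101). Mylip missed it without control rat 1, 2 or 6 or cholate rat 4, 7, 8 or 11 (0.0632 to 0.0935). Tested against a 2-fold change instead of against 0 (glmTreat), the smallest adjusted p among the members was 0.0911, for Npc1l1.

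Other genes of the pathway were read from 3 lists. For comparison, 6.48% of all genes tested rose and 7.28% fell. Of 18 genes of sterol sensing, SREBP processing and sterol-driven degradation, 2 rose and 0 fell, with a median log2 fold change of -0.01. These were Vcp, an ATPase that extracts proteins from the endoplasmic reticulum (0.50, adjusted p = 0.0104), and Tmem97, the sigma-2 receptor (0.74, adjusted p = 0.018). At an unadjusted p under 0.05 2 of the 18 were higher and 1 lower, beside the 14.5% and 14.4% of all genes given above. Of 16 genes of the isoprenoid branches, 3 rose and 0 fell, with a median of 0.27, and 5 were higher and 1 lower at an unadjusted p under 0.05. Pdss1, which makes the side chain of coenzyme Q from farnesyl diphosphate, went from 55.1 ± 19.3 to 137 ± 17.7 CPM (SD, n = 5 each) and was called (1.32, SE 0.22, adjusted p = 0.00426), and its partner Pdss2 and the dolichol gene Nus1 rose by 0.53 and 0.94 (adjusted p = 0.0411 and 0.0185). Of 28 tested genes of sterol transfer, storage and excretion, 4 rose and 1 fell, with a median of -0.12. At an unadjusted p under 0.05 4 were higher and 7 lower, beside the same 14.5% and 14.4% of all genes. At that unadjusted threshold the 4 higher were close to the share of all genes, and the 7 lower were above it. By adjusted p the 4 that rose were above the share of all genes, and the 1 that fell was below it.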

How the data were processed

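Colonic epithelial RNA of 10 rats (5 per diet) was sequenced as 1 library per rat and mapped with BWA-MEM 0.7.12-r1039 to rn6, per the labels' protocols and the submitters' processing notes. The deposited table gives raw read counts per gene, gene lengths and a second set of columns with a normalized signal that the authors made by TMM scaling in edgeR 3.16.2, per the labels. The counting program, its strand setting and its treatment of reads that map to several places are not stated in the sources used here. The table's length equalled the merged annotated coding length for 23422 of 23422 genes, so levels per kb are per coding length. The raw counts were tested here and the normalized signal was used as a check: the authors' effective library sizes were within 2% of those used here.

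Genes were filtered with filterByExpr by diet, leaving 12385 of 23422. They were fitted with edgeR 4.0.16 (R 4.3.3; TMM, robust glmQLFit, glmQLFTest, diet as the only term), with Benjamini-Hochberg adjustment over all of them. Every adjusted p not credited to another tool comes from this test. Alternatives were RLE, upper quartile and plain library size scaling, other count filters, DESeq2 1.42.0, limma 3.58.1 (voom and trend), edgeR's exact test, glmTreat and leaving out each rat. Fits without 3 or 4 rats and with 1 surrogate variable (sva 3.50.0) were chosen after the data were seen. The scripts were tested on simulated data. Each library is a separate, singly housed rat, so the tests set the diet difference against the spread between rats within a diet. With 1 library per rat, that spread also holds differences between libraries, such as those of control rat 9 and cholate rats 8 and 11. A level of 3 reads was taken as the floor, which is 0.0663 to 0.209 CPM by library.

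The members and the lists of other pathway genes and markers were chosen with earlier results of these data known. Each rat's level is printed for members that passed at 0.05 and for Srebf1, Srebf2, Insig1, Insig2, Npc1l1, Abca1 and Abcg1, the other members are given by means or ranges, and up to 4 genes per list of other pathway genes are named, called ones first and then by smallest adjusted p. Lpcat3, Abcg5 and Abcg8 fall outside that rule and were named after their values were seen. Promoter windows are from RefSeq on GRCr8, while gene coordinates are those of the deposited rn6 annotation, and the builds were not converted.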

Additional observations from a re-analysis of the deposited data

Results flagged for a closer look

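In 5 of the 68 sets of 5 rats tested (34 genes in 2 diets), 1 rat lay far from the other 4 of its diet on the log2(CPM + 0.5) scale, and chance alone gives about 1 in 20 sets. All 5 were control rats. Control rat 9 was lowest for Lss at 21.1 CPM (other controls 50.2 to 57.4), for Srebf2 at 108.6 CPM (161 to 187) and for Insig1 at 8.33 CPM (15.9 to 19.7), and its library is 1 of the 3 that stood apart. Control rat 5 was highest for Dhcr7 at 61.5 CPM (41.7 to 46.3). Control rat 2 was highest for Insig2 at 19.6 CPM (14.5 to 15.8).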

How the results depend on the processing

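The direction of every member with an adjusted p under 0.05 was the same in each alternative. No paired analysis was possible because the numbers name single rats and none occurs under both diets. Leaving out 1 rat at a time, the members called higher numbered 3 to 7 (6 with all rats; 3 without control rat 1, 2 or 6), the synthesis enzymes that rose 9 to 15 (14 with all rats; 9 without control rat 1) and the sensing, uptake and transport genes that fell 0 to 2 (1 with all rats). Members called lower went from 0 to 1, Mylip, with DESeq2, the exact test and 1 surrogate variable. The sensing, uptake and transport genes that rose went from 2 to 1 with a minimum mean of 5 CPM, which removed Npc1l1 from the test, and those that fell went from 1 to 2, Mylip and Npc1, with upper quartile scaling, DESeq2, limma-voom, the exact test, 7 rats, 6 rats and 1 surrogate variable. The LXR, efflux and esterification genes that fell went from 0 to 2 in 7 rats, 3 in 6 rats and 1 with 1 surrogate variable. The 3 in 6 rats were Nr1h2, Abca1 and Soat2, where 19.8% of all genes fell. That fit also left out control rat 5, a control low in Abca1. The cause of these differences was not tested. Estimates near 0 changed sign for Stard4 (0.0031 without control rat 2 and 0.0259 without cholate rat 8, in a range of -0.25 to 0.03 over fits without 1 rat), Nr1h2 (0.0037 without cholate rat 4, range -0.29 to 0.0037) and Soat1 (0.0545 in 7 rats). Over all genes tested, the called numbers were 59 to 310 higher (136 in the fit reported) and 109 to 693 lower (262), and at an adjusted p under 0.05 414 to 2364 higher (802) and 555 to 2501 lower (902), each highest in the 6 rats. No scaling moved the median of all genes by more than 0.0621. Npc1l1, Abcg1 and Soat2, with 79 to 504 reads per diet, are the members whose depth limits precision most.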

Other observations

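In the list of sterol transfer, storage and excretion genes, those that rose were Apoa4, an intestinal apolipoprotein (2.43 on the log2 scale, adjusted p = 0.0108), Fabp6, the ileal bile acid binding protein (adjusted p = 0.0237), Vldlr, a lipoprotein receptor (1.43, adjusted p = 0.0147), and Lpcat3, a phospholipid remodelling enzyme and LXR target (0.60, adjusted p = 0.0392). Both Fabp6 and Apoa4 were scarce. Fabp6 had means of 0.216 ± 0.219 CPM in the controls and 1.46 ± 0.830 CPM on cholate, so it entered the test through the cholate rats, and its fold rests on a control level near that of 3 reads and is not given. Apoa4 had means of 0.520 ± 0.202 and 2.90 ± 2.30 CPM. Vldlr went from 15.6 ± 2.50 to 42.1 ± 22.6 CPM (SD, n = 5 each), and Lpcat3 from 100.7 ± 14.1 to 152 ± 34.3 CPM. Smpdl3a, a sphingomyelinase-like LXR target, fell by 0.59 (adjusted p = 0.0344), from 118 ± 14.4 to 78.6 ± 15.7 CPM. The sterol exporter gene Abcg5 had 0 reads in all 10 libraries, and Abcg8 was at 0.021 CPM in the controls and at 0 on cholate, too few to test.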
